A study of Mus musculus with 8 samples.

Results

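The early response of mouse embryonic stem cells to deletion of Htatsf1 was read from 4 of 8 RNA sequencing libraries. These were the 2 libraries of cells given tamoxifen for 48 h and the 2 of cells given ethanol, the vehicle, for the same time. They were chosen by treatment and time alone, with no measured value used. The other 4 libraries hold the same treatments at 72 h and served to estimate the spread and to see which early changes were still there a day later. The stem cell line came from mice carrying a floxed Htatsf1 gene (tatsf1 flox/flox) and CreERT2, a recombinase that tamoxifen activates. Every library, ethanol ones included, therefore shares the floxed allele, CreERT2 and a feeder layer of mouse embryonic fibroblasts (MEFs), whose RNA was sequenced along. No group of these libraries had tamoxifen without the floxed allele, so responses to tamoxifen or active Cre and responses to loss of Htatsf1 cannot be told apart. The labels do not say how the lines or cultures relate to the 2 libraries of a group, so p-values here cover only library-to-library spread, which may be technical.

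HTATSF1 is an RNA-binding protein that associates with the U2 small nuclear ribonucleoprotein, the spliceosome particle that binds the intron's branch site through its SF3A and SF3B proteins. Embryonic stem cells are held in self-renewal by transcription factors such as POU5F1, NANOG and SOX2, and they divide fast, with a high demand for amino acids, nucleotides and ribosomes. When amino acids run short, the transcription factor ATF4 switches on amino acid transporters, synthesis enzymes and aminoacyl-tRNA synthetases. The files give 1 value per gene, as FPKM (fragments per kilobase of transcript, scaled to library size), so splicing itself was not analysed here.

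The targeted gene was examined first. Htatsf1 (chrX:54306747-54320359, mm9) stood at 23.0 and 21.7 FPKM in the ethanol libraries and at 4.13 and 3.78 FPKM in the tamoxifen libraries. The groups did not overlap, and the log2 change was -2.24 ± 0.08 (SE, limma adjusted p = 4.06e-07). Changes are differences of log2(FPKM + 1), which understate the change of genes with low values. The labels do not say which exons are floxed, and the share of the remaining signal that came from feeder cells was not measured.

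Stem cell markers were abundant in all 4 libraries. Pou5f1 stood at 637 and 655 FPKM in ethanol and 615 and 628 in tamoxifen, and Esrrb at 56.5, 53.7, 56.9 and 60.6. Sox2 is listed at 0 in all 4, while the authors' deposited table gives it a mean scaled count of 5907 in ethanol and 5819 in tamoxifen, so that 0 cannot be read as a level. The 40 fibroblast markers summed to 1124 and 1096 FPKM in ethanol and to 1601 and 1575 in tamoxifen, and 35 of 39 tested ones were called higher. The 9 blood and immune markers summed to 28.4 and 31.1 FPKM against 46.6 and 41.5, although Ptprc, the pan-leukocyte marker, lay between 0.128 and 0.246. The 8 endothelial markers summed to 19.16 and 17.8 FPKM in ethanol and 23.7 and 21.9 in tamoxifen, and 2 of 3 tested ones were called higher, Eng (log2 change 0.73) and Tek (0.50). Pecam1 stood at 13.3, 12.9, 13.8 and 12.7 FPKM, while Cdh5 lay under 0.05. The 8 muscle markers summed to 4.62 and 3.92 FPKM against 6.06 and 5.31, and 1 of 2 tested ones was called higher (Des, 0.42), while Myod1 reached 0.128 at most. The part of these cell types in the results was not tested. In bulk RNA, fewer cells of a type and less RNA per cell cannot be told apart.

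The fragments behind the values summed to 12.1 and 14.2 M in ethanol and to 8.99 and 13.1 M in tamoxifen. The shallowest library, tamoxifen replicate 1, also stood apart in 1 gene family. The mRNAs of replication-dependent histones, which mostly lack poly(A) tails, summed to 3982 FPKM over 62 tested genes in it, against 1968 in tamoxifen replicate 2 and 2057 and 1857 in ethanol. All 62 were higher in replicate 1 than in replicate 2, by a median log2 difference of 0.98, while the median over all tested genes was 0.01. In limma 0 of the 62 were called, with 12 at an unadjusted p under 0.05, while the authors' deposited table has 48 of the 61 found there higher and 0 lower. The family was noticed after its values were seen. Its median log2 change was 0.51, it was 0.05 without tamoxifen replicate 1, and without tamoxifen replicate 2 37 members were called higher. The part of this library's histone signal in other results was not tested, and counts without it stand beside the results.

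Across 11867 tested genes, 935 were higher with tamoxifen (7.88%) and 531 lower (4.47%) at an adjusted p of 0.05, and both shares are the background for every count below. A list whose share of calls lies near them shows nothing particular to it. The share of falls went with level, with 52 falls among the 3999 tested genes under 5 FPKM in ethanol at 48 h. A list of abundant genes can thus hold more than 4.47% falls with nothing particular to it. No share matched for level was computed. Both tamoxifen libraries lay above both ethanol libraries in 3879 tested genes and below both in 3100, so groups without overlap were common. Most changes were small. The median log2 change of the called genes was 0.42 for rises and -0.33 for falls, and 162 rises and 21 falls reached 1.5-fold. Calls reached down to log2 changes of 0.18 and -0.17, so with 2 libraries a group a gene that was not called may still have changed. Outside the p53 and fibroblast lists there were 869 rises and 531 falls. Leaving out 1 of the 4 libraries reduced the counts to 430 and 149 (ethanol replicate 1), 319 and 121 (ethanol replicate 2), 451 and 235 (tamoxifen replicate 1) or 563 and 193 (tamoxifen replicate 2). In all 4 of these fits 242 rises and 72 falls were called. After median-ratio scaling, which moved the median of all genes by -0.03, 818 rose and 768 fell, so that rises made up 51.6% of calls against 63.8%.

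**Figure D1:**
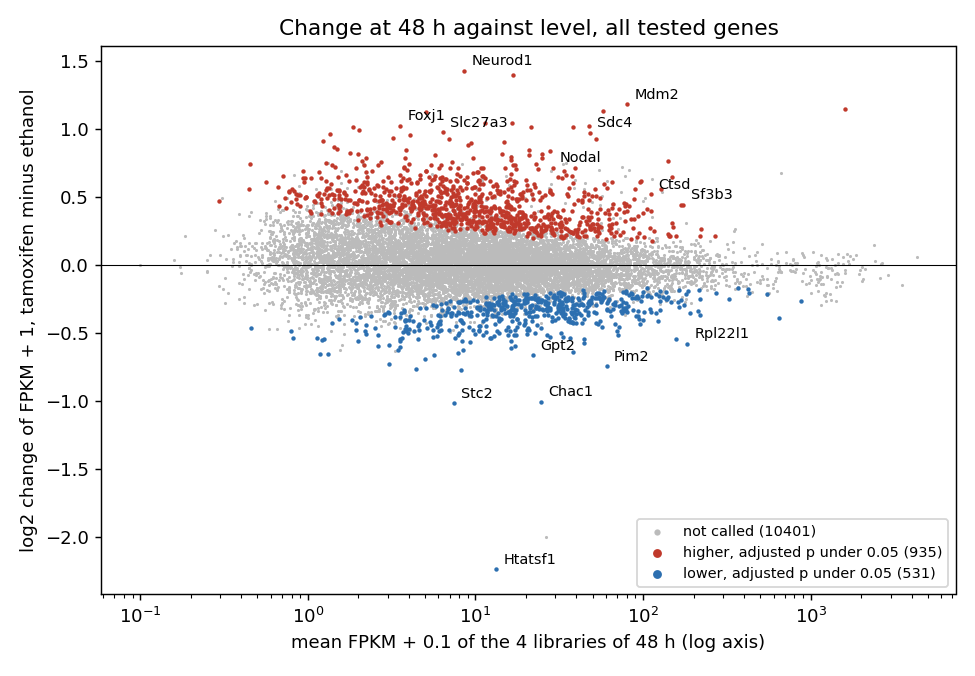
Each point is 1 of 11867 tested genes, with its mean FPKM + 0.1 over the 4 libraries of 48 h on a log axis and its log2 change of FPKM + 1, tamoxifen minus ethanol, on the other. Red points are the 935 genes called higher and blue points the 531 called lower; Htatsf1 is the lowest blue point, and the blue points lie at higher levels than the red ones.

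By their ethanol level, the genes that fell were more highly expressed than the genes that rose. Such a contrast is in part built in, because the ethanol libraries also enter the change and log2(FPKM + 1) understates falls from low values. How large the built-in part is was not measured. The median ethanol level was 23.6 FPKM for falls, 7.73 for rises and 9.46 for all tested genes, and 9.79% of falls lay under 5 FPKM against 33.7% of all. Gene structure was described with no test and no match for level, and falls had shorter transcripts than rises. The median length of a gene's longest annotated transcript was 2526 bases for falls, 3374.5 for rises and 3103 for all tested genes. The median span was 18.5 kb for falls, 21.8 kb for rises and 21.7 kb for all tested genes, and the median number of exons 10, 8 and 9. Genes with a single exon, which need no splicing, made up 2.89% of rises, 1.13% of falls and 2.50% of all tested genes with an annotation.

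The 12 largest rises outside the p53 and fibroblast lists were led by Neurod1, Zfp365 and Foxj1. Neurod1 (chr2:79292798-79296793), a transcription factor of neurons and endocrine cells, stood at 4.096 and 4.14 FPKM in ethanol and at 12.2 and 13.3 in tamoxifen (log2 change 1.43 ± 0.08 SE, adjusted p = 9.72e-06). Zfp365 (chr10:67348853-67375410), a zinc finger gene, went from 8.91 and 8.53 FPKM to 24.5 and 24.7 (1.398 ± 0.06, adjusted p = 1.71e-06). Foxj1, the master regulator of motile cilia, went from 1.97 and 1.88 FPKM to 4.56 and 5.35 (1.02 ± 0.09, adjusted p = 0.000143). The groups did not overlap in any of these genes, which the rule for naming them required, and the 2 libraries of a treatment lay close together.

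The adjacent genes Ltb4r2 and Ltb4r1 on chromosome 14 encode receptors for the inflammatory lipid leukotriene B4, and both rose from low levels. Ltb4r2 went from 0.765 and 0.847 FPKM to 2.13 and 3.25 (log2 change 1.02 ± 0.14 SE, adjusted p = 0.00166) and Ltb4r1 from 0.449 and 0.612 to 1.93 and 2.02 (0.96 ± 0.13, adjusted p = 0.00149). Ltb4r1 stood under 1 FPKM in every ethanol library of both times, so it entered the test through tamoxifen libraries alone. Ltb4r2, and Fam229b described below, each reached 1 FPKM in only 1 ethanol library, of 72 h. Neither could enter the test without tamoxifen libraries. Sdc4, a cell surface heparan sulfate proteoglycan, was the most abundant of the 12 largest rises, at 31.3 and 33.1 FPKM in ethanol and 66.3 and 61.7 in tamoxifen (0.97 ± 0.06, adjusted p = 1.61e-05). Slc27a3, of the fatty acid transport family, rose by 0.97 and Slc4a11, of the bicarbonate transporter family, by 0.93. Zfp750 went from 1.08 and 0.839 FPKM to 2.79 and 2.98 (0.99 ± 0.13). It overlaps Tbcd in the annotation, and Tbcd stood at -0.08. Fuom, a fucose mutarotase, rose by 0.95 and Tmem176a by 0.93. Fam229b, the 12th, went from 0.373 and 0.558 FPKM to 2.31 and 1.28 (0.91), and its call was lost without either ethanol library or without tamoxifen replicate 1 (adjusted p up to 0.0926). Trp73, a p53 family member outside the rule for naming genes, went from 0.663 and 0.652 FPKM to 1.94 and 2.10 (0.87 ± 0.10, adjusted p = 0.000632).

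The largest falls after Htatsf1 were smaller in size than the largest rises. Stc2 (chr11:31259441-31270061), a secreted glycoprotein, stood at 10.6 and 9.80 FPKM in ethanol and at 3.93 and 5.19 in tamoxifen (log2 change -1.02 ± 0.13 SE, adjusted p = 0.00117). Chac1 (chr2:119176978-119180062), an enzyme that degrades glutathione, went from 34.1 and 31.6 FPKM to 15.7 and 15.9 (-1.01 ± 0.07, adjusted p = 2.09e-05). Both are known targets of the ATF4 and CHOP stress response. Pim2 (chrX:7455432-7460558), a survival kinase downstream of cytokine signals, went from 76.3 and 75.9 FPKM to 45.4 and 44.8 (-0.74 ± 0.06, adjusted p = 5.22e-05).

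Gpt2, a mitochondrial alanine aminotransferase, went from 28.2 and 26.2 FPKM to 16.9 and 16.7 (log2 change -0.66 ± 0.06 SE, adjusted p = 0.000216). Nae1, a subunit of the enzyme that activates NEDD8, went from 45.4 and 47.6 to 30.6 and 28.3 (-0.64 ± 0.09). Ttc32 fell by 0.77 on the log2 scale, Fam195a by 0.76 and Calca, which encodes calcitonin and a neuropeptide, by 0.64. These 8 falls kept their calls without any 1 of the 4 libraries. The other 4 of the 12 did not. Tsacc (-0.73) and Pcbd2 (-0.66) lost theirs without any 1 of them (adjusted p up to 0.255 and 0.123), Fut1 (-0.65) without ethanol or tamoxifen replicate 2 (up to 0.0924), and Car14 (-0.65) without ethanol replicate 2 (0.0575). Car14 overlaps Aph1a, which stood at 0.12. Fut1 and Car14 stood under 1 FPKM in every tamoxifen library of both times, so they entered the test through ethanol libraries alone.

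**Figure D2:**
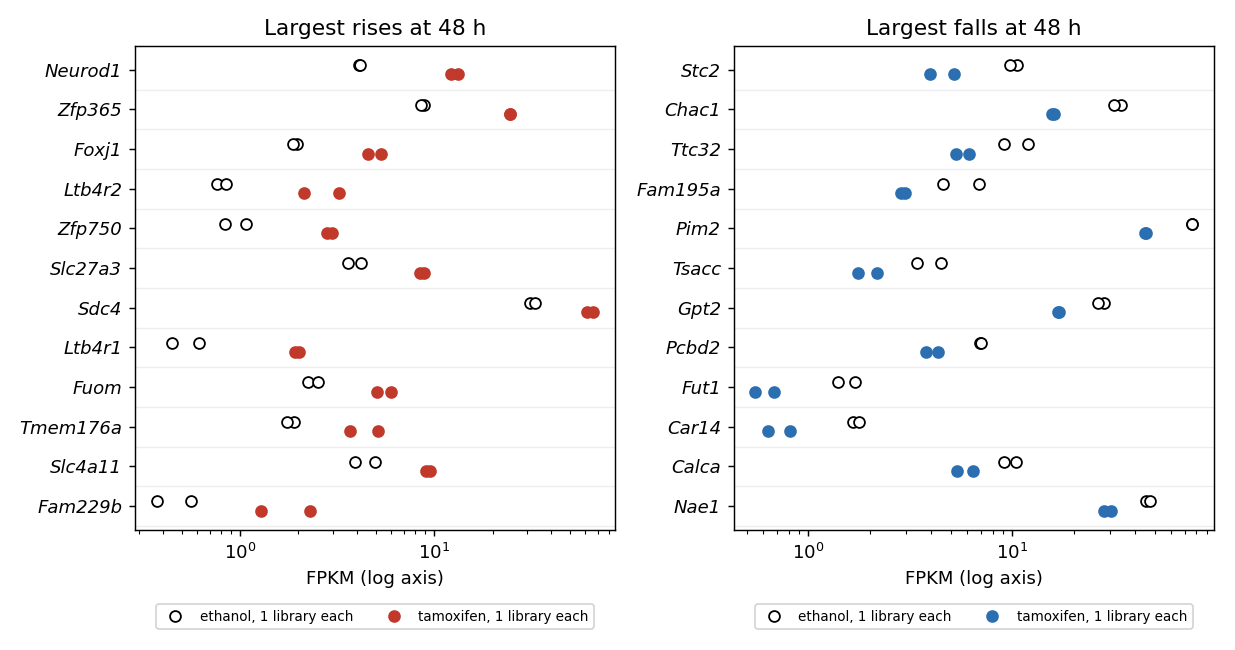
FPKM on a log axis in each library of 48 h for the 12 largest rises (left) and the 12 largest falls (right) outside the p53 and fibroblast lists; open circles are ethanol and filled circles tamoxifen libraries. In every gene shown both filled circles lie on one side of both open ones, which the choice of these genes required, and the 2 libraries of a treatment lie close together in Pim2, Sdc4 and Zfp365.

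Genes by which cells take up, make and load amino acids were among the falls. Of 30 tested targets of ATF4 and CHOP 13 were lower and 1 higher, with a median log2 change of -0.24 against 0.02 over all tested genes. In fits without ethanol replicate 1, ethanol replicate 2, tamoxifen replicate 1 or tamoxifen replicate 2 the falls numbered 7, 8, 9 and 8, and 7 of the 13 were called in all 4 of these fits: Chac1, Stc2, Trib3, Slc1a5, Slc1a4, Slc7a5 and Slc6a9. Of 28 genes of serine, one-carbon and proline synthesis 9 were lower and 0 higher, with a median of -0.12 (5, 5, 8 and 6 falls in the same fits). Of 20 cytoplasmic aminoacyl-tRNA synthetases 8 were lower and 0 higher, 19 had a change below 0, and the median was -0.17 (3, 3, 5 and 3 falls). Nars is counted both there and among the ATF4 targets.

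Among the transporters, Slc7a5, the light chain of the exchanger for leucine and other large amino acids, stood at 141 and 139 FPKM in ethanol and at 106 and 104 in tamoxifen (log2 change -0.41 ± 0.07 SE, adjusted p = 0.00495). Slc1a5, which carries glutamine, went from 37.6 and 36.5 FPKM to 29.1 and 28.9 (-0.34 ± 0.06). The neutral amino acid carrier Slc1a4 fell by 0.40 and the glycine transporter Slc6a9 by 0.56. Trib3, a pseudokinase that restrains ATF4, went from 34.7 and 31.2 FPKM to 22.2 and 23.0 (-0.53 ± 0.08, adjusted p = 0.00263). The mRNA of Atf4 itself went from 247 and 245 FPKM to 198 and 183 (-0.37 ± 0.08, adjusted p = 0.0122), a call that held in 1 of the 4 fits without a library. The falls of Chac1, Trib3, Slc7a5 and Atf4 were thus seen in both tamoxifen libraries at moderate to high levels.

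The same list held members that did not fall. Ddit4, an inhibitor of the mTORC1 growth kinase that p53 also induces, was the 1 rise, from 60.1 and 56.7 FPKM to 67.9 and 73.6 (0.27 ± 0.07, adjusted p = 0.0242). That call was lost without either ethanol library or tamoxifen replicate 2 (adjusted p up to 0.171), without the low-value filter (0.057) and without the trend (0.0641). Ddit3, which encodes CHOP, stood at 9.41 and 8.32 FPKM in ethanol and 9.22 and 7.38 in tamoxifen (-0.09, adjusted p = 0.654). Of 29 chaperones and unfolded protein response genes of the endoplasmic reticulum 2 were lower and 0 higher, Herpud1 (-0.48) and Sdf2l1 (-0.37), with a median of 0.01. The Sdf2l1 call was lost without ethanol replicate 1 (adjusted p = 0.0581).

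Falls in the synthesis enzymes were largest for Gpt2, described above, and for Pck2, the mitochondrial phosphoenolpyruvate carboxykinase, which went from 21.99 and 17.6 FPKM to 13.3 and 11.9 (log2 change -0.61 ± 0.10 SE, adjusted p = 0.00427). The mitochondrial folate enzymes followed, with Mthfd1l at 41.9 and 40.6 FPKM in ethanol and 31.9 and 30.4 in tamoxifen (-0.40 ± 0.07) and Mthfd2 at 85.9 and 83.5 against 68.5 and 64.8 (-0.34 ± 0.06). Psph (-0.37), Psat1 (-0.35) and Shmt2 (-0.30), of serine and glycine synthesis, were also lower. Phgdh, the entry enzyme of serine synthesis, stood at -0.11 (adjusted p = 0.185). Among the synthetases Cars, for cysteine, went from 45.1 and 42.9 FPKM to 32.9 and 32.0 (-0.43 ± 0.06, adjusted p = 0.00166), Lars, for leucine, from 101 and 104 to 81.4 and 76.4 (-0.38 ± 0.06) and Iars, for isoleucine, from 88.9 and 84.0 to 68.7 and 69.5 (-0.32 ± 0.05). These 3 were called in all 4 fits without a library. Asns, asparagine synthetase, went from 101 and 96.5 FPKM to 85.3 and 83.4 (-0.23 ± 0.05, adjusted p = 0.016), a call that was lost without any 1 of the 4.

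**Figure D3:**
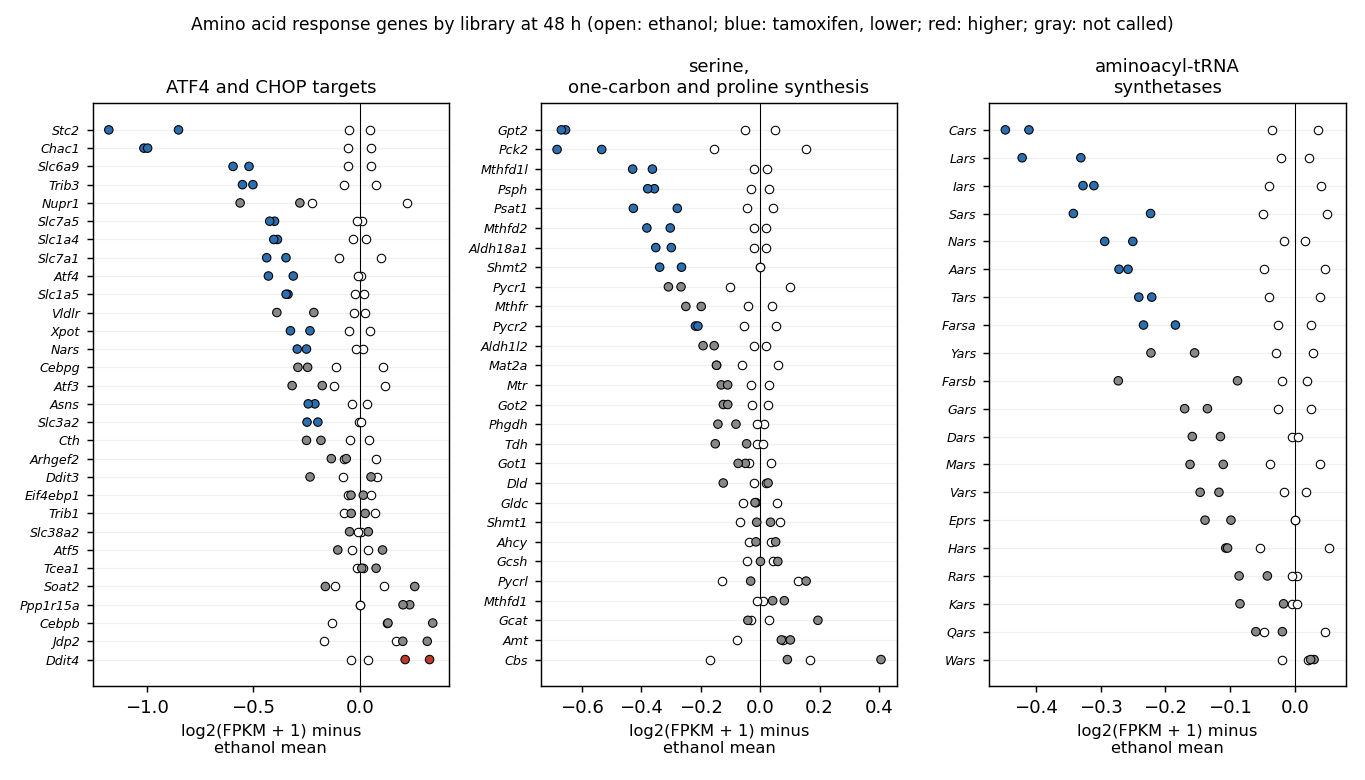
Log2(FPKM + 1) minus the ethanol mean in each library of 48 h for every tested gene of the 3 amino acid lists; open circles are ethanol libraries and filled circles tamoxifen libraries, blue where the gene was called lower, red where called higher and gray where not called. Blue genes number 13, 9 and 8 in the panels from left to right, and Ddit4 is the 1 red gene.

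ATF4 binds DNA as a heterodimer with C/EBP proteins, at composite elements that join a half-site of each. The letters TGATGNAA, read on both strands, were searched in the 250 bases before each gene's start in RefSeq's promoter table (build GRCm38.p6, genes matched by symbol). They were found in 12 of 58 matched genes of the 3 lists (20.7%), in 225 of 9572 tested genes (2.35%) and in 1134 of all 32851 windows (3.45%). Within the 3 lists the share was 21.7% among the 23 genes called lower and 20% among the 35 others, so it was similar in both. Members without such a call may still have fallen, so these shares cannot tell whether the letters go with a fall. Over all called genes they were in 17 of 432 falls (3.94%) and 18 of 724 rises (2.49%). One of the 3 lists was drawn from known ATF4 and CHOP targets and the other 2 by function, and all were chosen with earlier results of these data known. The 5 called genes with a match are shown as stretches of the gene's own strand with the match in capitals. Binding of ATF4 was not measured, so a match is a run of letters and not a known binding site here.

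Chac1: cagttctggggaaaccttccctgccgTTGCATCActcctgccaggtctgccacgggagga
Pck2: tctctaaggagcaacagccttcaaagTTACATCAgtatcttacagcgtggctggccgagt
Aars: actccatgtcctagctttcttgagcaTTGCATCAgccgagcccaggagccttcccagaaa
Tars: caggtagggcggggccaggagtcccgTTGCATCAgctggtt
Asns: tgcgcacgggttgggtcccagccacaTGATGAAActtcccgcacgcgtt

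The Chac1 stretch is chr2:119351023-119351082 on the plus strand, and Pck2 is chr14:55540137-55540196 and Aars chr8:111033704-111033763, also plus. Tars is chr15:11399659-11399699 and Asns chr6:7693210-7693258, both minus. In 4 of the 5 the match reads on the strand opposite to the gene (TTGCATCA or TTACATCA), and in Asns on the gene's strand. Chac1 (log2 change -1.01), Aars (-0.26) and Tars (-0.23) carry the same 8 letters. The calls of Aars and Tars were lost without any 1 of the 4 libraries of 48 h (adjusted p up to 0.128 and 0.138), and that of Tars also without the trend (0.0534).

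Components of the U2 particle moved in part. Of 27 tested genes of the U2 particle and branch site recognition 5 were higher and 1 lower, with a median log2 change of 0.05. Sf3b3 (chr8:113334392-113370703), a subunit of SF3B, stood at 146 and 148 FPKM in ethanol and at 195 and 205 in tamoxifen (0.44 ± 0.05 SE, adjusted p = 0.00106). Rbm17 (chr2:11507066-11524826), a splicing factor that binds SF3B1, went from 85.6 and 87.7 FPKM to 113 and 113 (0.38 ± 0.05, adjusted p = 0.00183). Sf3b1, the subunit that clamps the branch site, went from 77.6 and 77.3 FPKM to 97.6 and 99.1 (0.34 ± 0.05, adjusted p = 0.00234). These 3 kept their calls in all 4 fits without a library.

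The helicase Ddx46 (0.30) and the SF3B subunit Sf3b4 (0.24) were the other 2 rises, each with lost calls when a library was left out. The other SF3A, SF3B and U2AF subunits were not called, with Sf3b2 at 0.03 and U2af2 at 0.02. The rises numbered 3 without ethanol replicate 1 and 3 without tamoxifen replicate 2. Rbmx, the fall, lies near Htatsf1 on chromosome X, at chrX:54636525-54646213. It went from 6.87 and 7.06 FPKM to 5.02 and 4.89 (-0.42 ± 0.09, adjusted p = 0.0159), a call lost without any 1 of the 4 libraries (adjusted p up to 0.0982). The other 5 tested neighbours of Htatsf1 were not called.

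Of 37 SR proteins and hnRNPs 0 were higher and 6 lower, with a median of -0.06. Hnrnph3 went from 29.9 and 27.0 FPKM to 21.0 and 19.7 (log2 change -0.46 ± 0.08 SE, adjusted p = 0.00651) and Hnrpdl from 111 and 116 to 89.7 and 88.5 (-0.34 ± 0.06). Median-ratio scaling gave 10 falls, and dropping either the low-value filter or the trend gave 2. They numbered 1, 1, 3 and 2 without ethanol replicate 1, ethanol replicate 2, tamoxifen replicate 1 or tamoxifen replicate 2. Hnrnph3 overlaps Rufy2, which stood at 0.08. Of 14 factors of nonsense-mediated decay, the pathway that removes mRNAs with premature stop codons, 0 were called by limma in either direction, with 4 at an unadjusted p under 0.05, 8 changes above 0 and 6 below. The authors' deposited table has 0 of the 14 higher and 2 lower.

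Secreted signals were among the rises. Of 28 genes of the NODAL and TGF-beta pathway 9 were higher and 0 lower, with a median of 0.21. Nodal (chr10:60880720-60888085), the ligand that patterns the epiblast, stood at 21.1 and 22.05 FPKM in ethanol and at 35.2 and 36.8 in tamoxifen (log2 change 0.71 ± 0.06 SE, adjusted p = 0.000103). Inhba, the activin A subunit, went from 25.5 and 27.5 FPKM to 40.6 and 44.7 (0.66 ± 0.07, adjusted p = 0.000658). Tgfb1 rose by 0.42 and the signal transducer Smad3 by 0.40. The feedback inhibitors Lefty1 and Lefty2, which NODAL signalling induces in stem cells, stood at 0.12 and -0.14 and were not called.

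Of 18 BMP pathway genes 4 were higher, with a median of 0.22. Among them was the BMP antagonist Grem1, at 17.3 and 16.3 FPKM in ethanol and 28.8 and 28.7 in tamoxifen (log2 change 0.74 ± 0.08 SE). Of 29 genes of FGF signalling, ERK feedback and the immediate early response 9 were higher and 0 lower, with a median of 0.20. Fosl1, an AP-1 subunit, went from 4.17 and 4.38 FPKM to 7.11 and 8.15 (0.71 ± 0.10, adjusted p = 0.00183), and overlaps Ccdc85b, which stood at 0.01. Fosl2 rose by 0.47, Jun by 0.42 and Egr1 by 0.42. Of 29 WNT pathway genes 5 were higher, among them Wnt5a (4.65 and 5.48 FPKM against 7.73 and 8.18, 0.56 ± 0.10) and Wnt6 (0.61). Wnt6 stood under 1 FPKM in every ethanol library of both times, so it entered the test through tamoxifen libraries alone. Wnt6 lost its call without ethanol replicate 2 (adjusted p = 0.0636). These counts moved with single libraries. Without ethanol replicate 1, ethanol replicate 2, tamoxifen replicate 1 or tamoxifen replicate 2 the NODAL and TGF-beta rises numbered 7, 2, 4 and 6, the FGF and early gene rises 2, 3, 6 and 5, the BMP rises 3, 2, 2 and 4 and the WNT rises 3, 2, 2 and 3. Fibroblast markers rose in the same libraries (35 of 39, median 0.53), and fibroblasts also make Inhba, Tgfb1, Grem1, Fosl1 and Wnt5a. The part of the feeder cells in these rises was not tested.

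Lysosomal genes also rose in part, with 9 of 39 tested members higher, 0 lower and a median of 0.10. Ctsd, the protease cathepsin D, stood at 91.7 and 90.6 FPKM in ethanol and at 136 and 127 in tamoxifen (log2 change 0.52 ± 0.06 SE, adjusted p = 0.000492). Sqstm1, the autophagy receptor p62, went from 67.2 and 65.1 to 93.4 and 86.4 (0.44 ± 0.05, adjusted p = 0.00119) and Man2b1, a lysosomal mannosidase, from 12.6 and 12.6 to 17.7 and 17.8 (0.46 ± 0.06). Grn rose by 0.38 and Gaa by 0.37. The list had 5, 3, 5 and 7 rises without ethanol replicate 1, ethanol replicate 2, tamoxifen replicate 1 or tamoxifen replicate 2. Of 22 NRF2 and metal response genes 4 were higher, Hmox1 (0.27) and Nqo1 (0.34) among them, and of 20 interferon response genes 4, among them Ifit1 (0.49) and Irf7 (0.46). Ifit1 and Irf7 stood under 1 FPKM in every ethanol library of both times. They entered the test through tamoxifen libraries alone, so their calls add little to this count. Tyrobp, a blood and immune marker given below, reached 1 FPKM in only 1 ethanol library of both times. It could not enter the test without tamoxifen libraries, and only 5 of the 9 listed markers of that kind were tested. In the same 4 fits the NRF2 rises numbered 1, 1, 1 and 2 and the interferon rises 0, 0, 1 and 0. All 5 tested blood and immune markers were higher in the same libraries, with a median of 0.49 (0, 2, 1 and 3 in those fits, 2 when low values were not filtered, 3 with the replicate block and 3 in the 48 h libraries alone), among them Laptm5 (0.43) and Tyrobp (0.82), and their part was not tested.

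**Figure D4:**
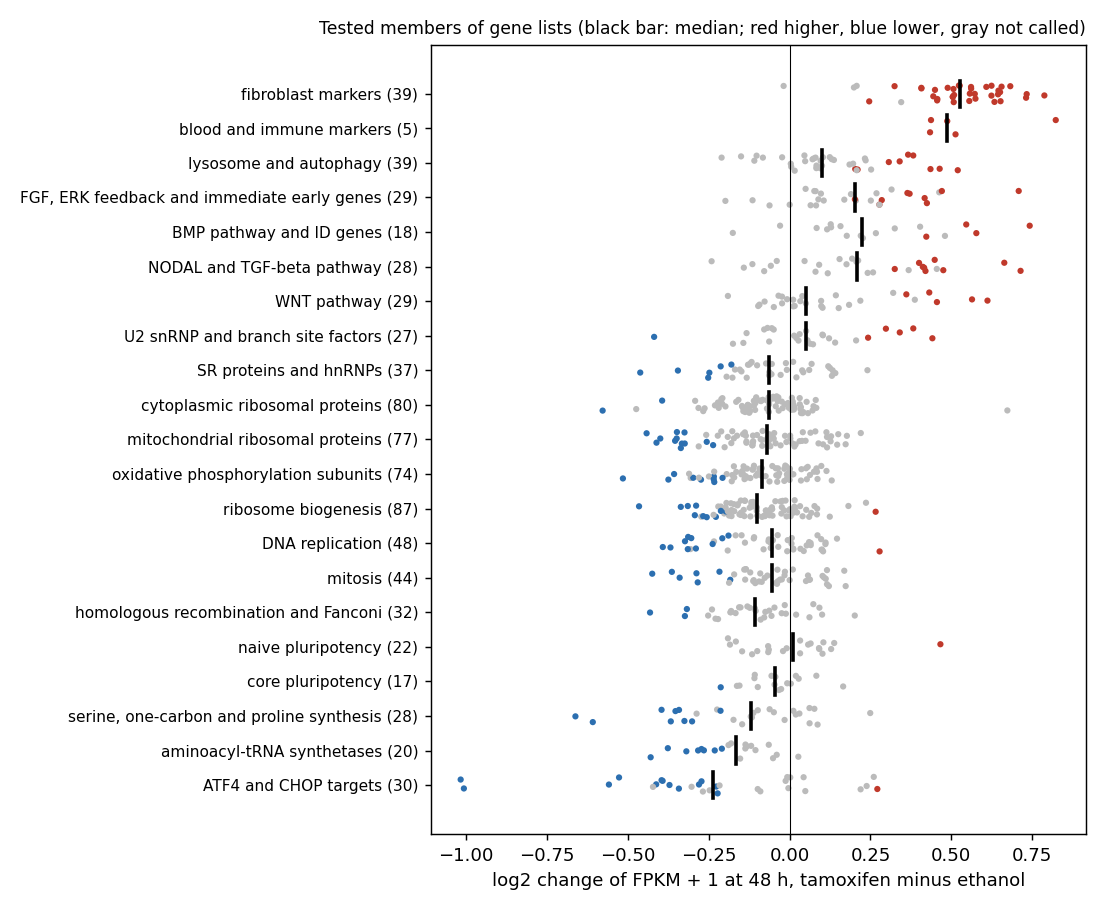
Each point is a tested member of a gene list at its log2 change of FPKM + 1 at 48 h, tamoxifen minus ethanol, with the number tested in parentheses, a black bar at the list's median, and red, blue or gray for called higher, called lower or not called. Medians run from 0.53 for fibroblast markers to -0.24 for ATF4 and CHOP targets, and most points of the ribosome, cycle and pluripotency lists are gray and near 0.

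Genes of cell division and growth showed scattered falls against a larger number of members that were not called. Of 48 DNA replication genes 10 were lower and 1 higher, with a median of -0.06. Pola2, of the polymerase alpha and primase complex, went from 34.7 and 35.2 FPKM to 28.9 and 26.7 (log2 change -0.32 ± 0.06 SE, adjusted p = 0.00931). E2f1, the S phase transcription factor, was the 1 rise (0.28). The falls numbered 3, 0, 3 and 1 without ethanol replicate 1, ethanol replicate 2, tamoxifen replicate 1 or tamoxifen replicate 2, and 6 with the replicate number as a block. Of 44 mitosis genes 7 were lower, among them Bub1 (-0.36) and Birc5 (-0.34), and in the same 4 fits 0, 1, 1 and 2. Of 32 genes of homologous recombination and the Fanconi pathway 3 were lower. Fancd2, the central Fanconi protein, went from 15.2 and 15.0 FPKM to 10.9 and 11.0 (-0.43 ± 0.07, adjusted p = 0.00323) and was the 1 member called in each of the 4 fits. The 3 falls became 5 after median-ratio scaling and 1 without the filter.

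Ribosome and mitochondrial lists differed in their share of falls. In the main fit it lay below the 4.47% of all tested genes for cytoplasmic ribosomal proteins and for polymerase subunits. Of 77 mitochondrial ribosomal proteins 12 were lower, 0 higher, with a median of -0.07 (2, 4, 9 and 4 falls in the 4 fits without a library). Mrpl55 went from 25.8 and 27.9 FPKM to 19.8 and 19.23 (log2 change -0.44 ± 0.07 SE, adjusted p = 0.00256). Of 74 oxidative phosphorylation subunits 9 were lower (0, 1, 3 and 0 in the same fits) and of 87 ribosome biogenesis genes 10 were lower and 1 higher (falls of 1, 0, 5 and 4). The oxidative phosphorylation falls numbered 15 in the 48 h libraries alone and 2 without the filter or without the trend. Dropping the trend gave 5 ribosome biogenesis falls, dropping the filter 6 and median-ratio scaling 18, and the rise was lost in these 3 fits. Of 80 cytoplasmic ribosomal proteins 2 were lower, against 6 after median-ratio scaling and 8 in the 48 h libraries alone. Rpl22l1, a paralogue of the ribosomal protein RPL22, stood at 216 and 222.9 FPKM in ethanol and at 151 and 143 in tamoxifen (-0.58 ± 0.08, adjusted p = 0.00166). Rpl27, the other, fell by 0.39 and lost its call without either ethanol library or the second tamoxifen library (adjusted p up to 0.0705). Ribosomal protein genes have near-identical pseudogenes, so their values are uncertain. Polr3c, a subunit of RNA polymerase III, went from 20.8 and 20.4 FPKM to 13.8 and 15.7 (-0.46 ± 0.08), the 1 fall among 34 subunits and factors of RNA polymerases I and III (3 after median-ratio scaling).

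Of 25 hypoxia response genes 3 were lower and 1 higher. Pdk1, a kinase that restrains pyruvate dehydrogenase, stood at 53.2 and 52.0 FPKM in ethanol and at 37.7 and 33.9 in tamoxifen (log2 change -0.54 ± 0.06 SE, adjusted p = 0.000814). Bnip3, a mitophagy receptor, fell by 0.54 and lost its call without ethanol replicate 2 (adjusted p = 0.0577). The 24 cholesterol synthesis and 25 nucleotide synthesis genes held 3 falls each and 0 rises. Without ethanol replicate 1, ethanol replicate 2, tamoxifen replicate 1 or tamoxifen replicate 2 the hypoxia falls numbered 2, 1, 2 and 2, the cholesterol falls 0, 0, 1 and 0 and the nucleotide falls 1, 0, 1 and 1. Median-ratio scaling gave 5 hypoxia and 5 cholesterol falls, and the cholesterol falls numbered 1 without the filter and 0 without the trend.

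Pluripotency genes were nearly unmoved in the test at this time. Of 17 core members 1 was lower (Tdgf1, -0.21) and of 22 naive members 1 was higher (Tbx3, 0.47), with medians of -0.04 and 0.01. Nanog stood at 65.9 and 67.0 FPKM in ethanol and 61.8 and 61.3 in tamoxifen (log2 change -0.11 ± 0.07 SE, adjusted p = 0.33). In the formative and primed epiblast list 2 of 19 tested members were lower, Sfrp2, a secreted WNT modulator (12.8 and 11.5 FPKM against 8.74 and 8.55, -0.45 ± 0.07), and Dnmt3b (-0.34). Of 22 tested neural and neuroendocrine genes 3 were higher, Neurod1, Hes6 (0.53) and Insm1 (0.67), while 13 had changes below 0 and the median was -0.10. Of these named genes only Sfrp2 and Neurod1 kept their calls without any 1 of the 4 libraries. Median-ratio scaling gave 2 core and 4 formative falls, and the 1 core fall was lost without the filter, without the trend and with the replicate block. None of 13 two-cell-like genes matched reached the level needed for the test. Of 7 estrogen response genes, checked because tamoxifen acts on estrogen receptors, 2 were higher (Nrip1, 0.41, and Ccnd1, 0.23), and both lost their calls without any 1 of the 4 libraries.

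The authors' deposited table of the 48 h comparison, which rests on counts, had 1107 genes higher and 888 lower at an adjusted p of 0.05. Of the 935 rises found here 764 were called higher in the authors' deposited table, and of 530 falls found in it 454 were called lower there. No gene was called in opposite directions, and all 1465 genes called here and found in it had the same sign. Both comparisons rest on the same 48 h samples, so this is no independent support. A further 285 genes called higher there and 419 called lower there were tested here and not called. For Neurod1 the authors' deposited table gives mean scaled counts of 136 in ethanol and 419 in tamoxifen, and for Chac1 620 and 284. For Sf3b3 the authors' deposited table gives 8385 and 11190.

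Most early changes were present at 72 h, in group means taken from other libraries than those of 48 h. Both comparisons took their spread from the same fit of all 8 libraries, so the calls of both times are not independent of each other. There 20.1% of tested genes were called higher and 18.5% lower. Of the 935 rises 811 (86.7%) were called higher again, which is 34.1% of the 2380 rises of 72 h, and 902 had the same sign. Of the 531 falls 419 (78.9%) were called lower again, 19.11% of the 2192 falls of 72 h. The median log2 change of the early rises went from 0.42 to 0.56 and that of the early falls from -0.33 to -0.38. The change itself differed between the times, by the test of the difference in the same fit, in 409 genes (3.45%), and in 168 of the 1466 genes called at 48 h. The count of 409 depended on the settings. It was 44 without the low-value filter, 226 without the trend and 266 with the replicate block. It was 414 after median-ratio scaling and 535 with a pseudocount of 5. Without ethanol replicate 1, ethanol replicate 2, tamoxifen replicate 1 or tamoxifen replicate 2 of 48 h the calls shared by both times, 1230 in all, numbered 523, 409, 609 and 636. The differences numbered 50, 62, 108 and 196 in these fits, and 146, 127, 243 and 172 without ethanol replicate 1, ethanol replicate 2, tamoxifen replicate 1 or tamoxifen replicate 2 of 72 h.

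Among genes that rose at 48 h the difference was in the direction of a larger rise at 72 h in 129 and of a smaller one in 11, all 11 with the sign turned. Il1rl1, the interleukin 33 receptor, stood at 18.01 and 18.1 FPKM in ethanol and at 33.8 and 30.0 in tamoxifen at 48 h (log2 change 0.78), and its change was 2.18 at 72 h (adjusted p of the difference 0.00138). Gadd45g, a growth arrest gene, went from 0.43 to 1.71 (adjusted p of the difference 0.00204). Sf3b3 and Rbm17 had changes of 0.44 and 0.38 at 48 h and of 0.77 and 0.76 at 72 h (adjusted p of the difference 0.0443 and 0.0298), while Sf3b1 stood at 0.34 and 0.24 (0.426). Fuom rose early and stood at -0.15 at 72 h (adjusted p of the difference 0.0143). Tfap2c, a trophoblast and germ cell transcription factor, was higher at 48 h (0.38, lost without ethanol replicate 2, adjusted p = 0.066) and lower at 72 h (-0.29).

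For the falls, the difference was in the direction of a larger fall in 19 genes and of a smaller one in 9. Pim2 stood at -0.74 at 48 h and -0.22 at 72 h (adjusted p of the difference 0.0127), and Mrpl55 at -0.44 and 0.06 (0.025). Pdk1 went from -0.54 to -1.23 (0.00727). Of the amino acid genes, the changes at 48 h and 72 h stood for Chac1 at -1.01 and -0.98, for Stc2 at -1.02 and -0.94 and for Gpt2 at -0.66 and -0.84, and none of these 3 differences passed (adjusted p = 0.895, 0.843 and 0.266). At 72 h 17 of the 30 ATF4 and CHOP targets, 19 of the 28 synthesis genes and 9 of the 20 synthetases were called lower, with medians of -0.29, -0.32 and -0.16. Ddit3 had no call at 48 h and a change of 1.12 at 72 h (adjusted p of the difference 0.00727).

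**Figure D5:**
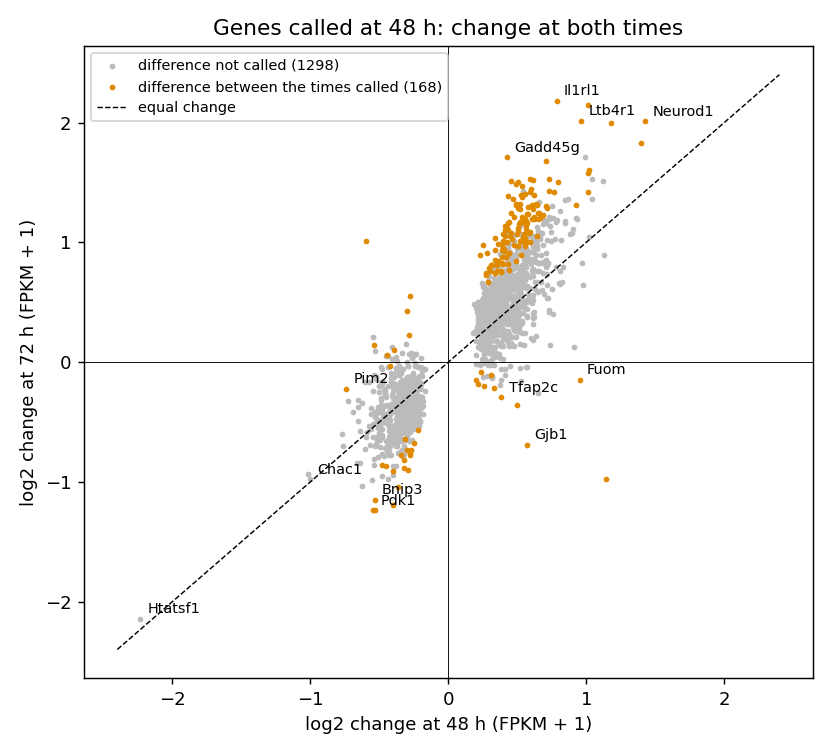
Each point is 1 of the 1466 genes called at 48 h, with its log2 change of FPKM + 1 at 48 h on the horizontal and at 72 h on the vertical axis; orange marks the 168 genes whose change differed between the times, and the dashed line equal changes. Most points lie in the quadrants of equal sign, with Neurod1, Ltb4r1, Il1rl1 and Gadd45g above the line and Fuom, Gjb1 and Tfap2c below the horizontal axis.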

How the data were processed

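Polyadenylated RNA, enriched with beads, was sequenced as paired ends, per the labels' protocols, and the labels gave groups and replicates. The authors deposited a table of FPKM per gene, with confidence bounds, for each library. The submitters' processing notes name HTSeq, DESeq, Cufflinks 1.3.0, TopHat 1.4.1 and BWA 0.6.1 on mm9, with roles not given in the sources used here. A comparison table deposited by the authors holds, per the file headers, group means (a signal, counts over size factors), a fold ratio and its log2, and p-values. Its log2 values are ethanol over tamoxifen by a recomputation from the means, so their sign was turned here.

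Of 20461 gene identifiers, 20388 had an OK status, and 11867 that reached 1 FPKM in 2 or more of 8 libraries were tested. Genes could pass this filter through the group where they were high alone, so calls of such genes lean to that direction. One limma fit (R 4.3.3, limma 3.58.1, mean trend) of log2(FPKM + 1) over all 8 libraries, with a mean per group and 4 residual degrees of freedom, gave two-sided p-values, adjusted by Benjamini-Hochberg over all genes. It was also run on simulated libraries with independent errors and no changed genes of low level. That run cannot show how the fit handles low values or a library that stands apart. Fragments behind a value were implied by its bounds, cover counting error only, and had a median of 260 to 404 per tested gene at 48 h. Correlations of libraries within groups were 0.995 to 0.997. File positions are mm9, with 1 added to starts.

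Lists, members and tests were chosen with earlier results of these data known. Named genes were Htatsf1, the 12 largest rises and falls outside the p53 and fibroblast lists whose libraries did not overlap, the 2 called members of smallest p per list, and the 5 largest differences between times each way. Uncharacterised genes were left out, and 2 genes that the rule took are not reported here. Other genes named were chosen after their values were seen. Alternatives were another pseudocount (5), no filter, median-ratio scaling, the 48 h libraries alone, no trend, a replicate block and each library left out. Promoter sequences are from RefSeq, matched by symbol.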

Additional observations from a re-analysis of the deposited data

Results flagged for a closer look

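For each gene below the change with tamoxifen at 72 h differed from that at 48 h in limma's test of the difference (adjusted over all genes at 0.05), given as the 72 h minus the 48 h log2 change. Among the largest early rises the difference was 0.59 for Neurod1, 0.43 for Zfp365, 0.58 for Foxj1, 1.13 for Ltb4r2, 1.06 for Ltb4r1 and -1.10 for Fuom. Among the largest falls it was 0.52 for Pim2.

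Of the p53 and fibroblast lists Mdm2 differed by 0.82, Thbs1 by 0.41 and Col1a1 by 0.58. In the splicing lists Sf3b3 differed by 0.33 and Rbm17 by 0.38. In the ribosome lists the difference was 0.50 for both Rpl27 and Mrpl55, each lower at 48 h and not called at 72 h. Lysosomal Ctsd differed by 0.49 and Sqstm1 by 0.38, and hypoxia genes Pdk1 by -0.69 and Bnip3 by -0.61.

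Signalling and stress genes with larger rises later were Fosl1 (0.97), Jun (0.46), Gadd45g (1.28), Ccnd1 (0.66), Ddit4 (0.45) and Ddit3 (1.21), the last not called at 48 h. Lefty2 (-0.69) and Nanog (-0.40) were not called at 48 h and lower at 72 h. Hes6 differed by 0.68 and Tfap2c by -0.68.

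The other differences, chosen by their size, were 1.399 for Il1rl1 and 1.06 for Mcpt8, a mast cell and basophil protease, and -1.26 for Gjb1, -0.79 for Pycard and -0.70 for Enpp3. Gm20594 differed by -2.12.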

How the results depend on the processing

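With 2 libraries a group, leaving out 1 gives a fit in which the lone library is assumed to vary like the other groups, and counts fell. Over the 8 fits without 1 library the Htatsf1 change ran from -2.29 to -2.18, genes higher from 319 to 961, genes lower from 121 to 622, differences between times from 50 to 243 and calls shared by both times (1230 with all libraries) from 409 to 1217. Falls ran from 7 to 13 among ATF4 and CHOP targets, 5 to 9 among synthesis genes, 3 to 8 among synthetases, 0 to 10 in DNA replication, 1 to 8 among SR proteins and hnRNPs, 0 to 1 in the U2 list and 2 to 14 among mitochondrial ribosomal proteins. Rises ran from 2 to 10 in the NODAL and TGF-beta list, 2 to 9 in the FGF list, 3 to 10 in the lysosome list, 3 to 5 in the U2 list, and 0 to 1 in both the ATF4 and the DNA replication list. Without the filter on low values, which tests more genes, 308 genes were lower and 44 differed between times. It gave 0 rises among ATF4 targets, 0 rises and 5 falls in DNA replication, 2 falls among SR proteins and hnRNPs and 6 among mitochondrial ribosomal proteins. Without the trend 226 genes differed, with 0 ATF4 rises, 0 rises and 3 falls in DNA replication, 2 SR protein and hnRNP falls, 5 synthetase falls and 7 mitochondrial ribosomal falls. Median-ratio scaling gave 10 SR protein and hnRNP falls and 0 DNA replication rises, as did the 48 h libraries alone for the latter. Same-numbered libraries of 48 h deviated together with a correlation of 0.0024, and over all pairs of groups it ran from -0.28 to 0.15. These values cannot settle whether same-numbered libraries share a culture or batch. With the replicate block 844 genes were higher, 441 lower, 266 differed and 6 DNA replication genes fell. Of 119 genes named by the rule 52 were called under all 14 alternatives and 0 reversed. Ddit3, not called, ran from -0.23 to 0.053 when single libraries were left out, the latter without tamoxifen replicate 2. The causes of these shifts were not tested. Genes of a few FPKM rest on few fragments, and small changes there were not detectable at this depth.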

Other observations

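Gm20594, an uncharacterised gene on chromosome 6, was left out by the rule for named genes, and is given because its values were among the highest of any call. It stood at 833 and 1136 FPKM in ethanol and at 2638 and 1757 in tamoxifen at 48 h (log2 change 1.15 ± 0.20 SE, limma adjusted p = 0.00548), and its change at 72 h was -0.97. The authors' deposited table, which calls 48 histone genes higher at 48 h, pools both tamoxifen libraries, and all 62 histone genes tested here were higher in replicate 1 than in replicate 2. The higher of the Gm20594 tamoxifen values came from replicate 1, the library whose histone transcripts stood apart. At 72 h the histone sum was 1319 FPKM in tamoxifen replicate 1 and 2137 in replicate 2, against 2219 and 1744 in ethanol, and 1 of 62 histone genes was higher in the first tamoxifen library than in the second.

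The share of calls was counted by chromosome, with no test. Between 3.03% of tested genes on chromosome 4 and 7.25% on chromosome 8 were called lower, and between 5.41% on chromosome X and 10.6% on chromosome 1 were called higher.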
